A study of Mus musculus with 12 samples.

Results

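The expressed variable segments of the mouse antibody loci were described in colon RNA from wild-type C57BL/6J mice. Every gene of the deposited expression table whose Ensembl identifier carries a symbol starting Ighv (heavy chain), Igkv (kappa light chain) or Iglv (lambda light chain) was taken, and a segment was kept when it reached an FPKM of 5 or more in at least 1 of the 12 libraries. FPKM are fragments divided by gene length and library size, so levels of different segments are comparable per length. The rule kept 171 of the 348 variable segments in a table of 54532 genes: 85 of 185 Ighv, 83 of 160 Igkv and 3 of 3 Iglv. All 171 are annotated as V genes rather than pseudogenes, and none of the 130 pseudogenes in the table was kept, although 26 of these had a value above 0. The segments were thus chosen by their highest FPKM over the 12 libraries, and because of this levels and shares are given as descriptions without a test.

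The 12 libraries form 4 groups of 3 samples: mice on a diet labelled CD, mice on a diet labelled HFD, and each of these diets with 2% DSS. The labels name the groups as CD, HFD, CD+2% DSS and HFD+2% DSS (here CD+DSS and HFD+DSS), and every mouse was wild type. The series title spells out HFD as a high-fat diet and speaks of colitis, for which dextran sulphate sodium (DSS) in drinking water is a common chemical inducer. The sources used here do not give age, sex, time on diet or DSS, or the stretch of colon taken. They do not state either whether replicates are separate animals, so p-values measure the spread between samples, which may be technical.

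An antibody chain is made by cutting and joining a variable (V) segment, for the heavy chain a diversity segment, and a joining (J) segment in each developing B cell. Each B cell therefore transcribes 1 productive heavy and 1 productive light V segment at a high level, and its descendants keep that choice. The normal colon is rich in plasma cells, which secrete IgA (heavy constant gene Igha) bound to the J chain (Jchain) and hold far more antibody RNA than a resting B cell. A segment that takes a large share of its class can be used by many B cells or by a few large clones, and bulk RNA does not tell these apart. Likewise, fewer antibody-secreting cells and less antibody RNA per cell cannot be told apart here.

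The 3' end of a V segment holds the codon of a conserved cysteine, after which begins the third complementarity-determining loop, the part of the antibody where the joined segments meet. The last 150 germline bases of 5 of the most used segments are printed to show what the counted RNA contains, with capitals from the cysteine codon to the segment's end. They are from the GENCODE M21 transcripts of mm10 (GRCm38), and mutated antibody RNA can differ from them. Ighv14-4 spans chr12:114176438-114176867 and Ighv1-26 chr12:114788372-114788805, both on the minus strand, and each consists of a leader exon and the V exon. Igkv17-121 lies at chr6:68036812-68037318 on the plus strand, Igkv10-96 at chr6:68631963-68632442 on the minus strand and Igkv4-59 at chr6:69438218-69438757 on the minus strand.
Ighv14-4: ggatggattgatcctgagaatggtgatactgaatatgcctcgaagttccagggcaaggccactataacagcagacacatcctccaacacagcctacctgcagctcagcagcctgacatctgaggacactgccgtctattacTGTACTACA
Ighv1-26: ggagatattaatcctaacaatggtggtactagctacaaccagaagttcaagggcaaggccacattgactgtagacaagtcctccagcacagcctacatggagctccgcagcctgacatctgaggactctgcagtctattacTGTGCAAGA
Igkv17-121: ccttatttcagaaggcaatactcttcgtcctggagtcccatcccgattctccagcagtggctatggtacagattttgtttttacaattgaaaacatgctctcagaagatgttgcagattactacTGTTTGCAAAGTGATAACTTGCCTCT
Igkv10-96: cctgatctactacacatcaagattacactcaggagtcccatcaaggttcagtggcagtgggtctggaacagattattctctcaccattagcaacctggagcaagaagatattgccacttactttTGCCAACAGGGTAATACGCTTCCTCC
Igkv4-59: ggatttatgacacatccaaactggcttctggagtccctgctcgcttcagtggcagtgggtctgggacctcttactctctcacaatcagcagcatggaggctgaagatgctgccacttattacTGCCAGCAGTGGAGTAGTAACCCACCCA
After the capitals begin, the 2 heavy segments keep 9 bases and the kappa segments 26 to 28, since most of the heavy chain loop is supplied by the diversity and joining segments.

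The lambda locus is far smaller, and its 2 main segments are near copies of each other. Iglv1 (chr16:19085017-19085500) and Iglv2 (chr16:19260401-19260859) are both on the minus strand and differ at 8 of their last 300 germline bases, an identity of 97.33%. They are shown because the Iglv2 share of the class ran from 1.63% to 30.7% over the libraries, with capitals at the bases where they differ.
Iglv1: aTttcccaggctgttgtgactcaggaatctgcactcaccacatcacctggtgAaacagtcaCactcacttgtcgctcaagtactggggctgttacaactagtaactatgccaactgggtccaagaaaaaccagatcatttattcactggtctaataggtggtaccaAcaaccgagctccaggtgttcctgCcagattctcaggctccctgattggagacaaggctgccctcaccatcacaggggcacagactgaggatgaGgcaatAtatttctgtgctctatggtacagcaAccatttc
Iglv2: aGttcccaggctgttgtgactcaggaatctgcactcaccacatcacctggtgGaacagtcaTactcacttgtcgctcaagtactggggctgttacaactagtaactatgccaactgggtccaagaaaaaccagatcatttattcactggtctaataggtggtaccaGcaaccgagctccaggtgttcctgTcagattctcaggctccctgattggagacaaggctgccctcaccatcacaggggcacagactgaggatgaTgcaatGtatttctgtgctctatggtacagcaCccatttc
Such likeness is common among the 171 segments. In 143 of them at least 1 window of 50 bases is also found in another V segment of the table, in 28 none is, and over the last 250 bases the median identity to the nearest other segment was 95.2%. The sources used here do not give how the authors assigned fragments that match several segments, so the split between near copies is uncertain. It is most uncertain for the 23 segments with more than 50% of their windows shared. These include the leaders Ighv1-72 (92.51% of windows), Igkv4-59 (74.29%) and Igkv3-10 (53.55%). Ighv2-4 (55.48%) and Ighv1-37 (50.99%), which rest on 1 library, are also among them, as are Igkv5-43 (51.21%) and Igkv1-110 (50.85%). The levels, shares and ranks given below for these named segments carry this uncertainty.

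V segments took between 0.0427% (CD+DSS 2) and 0.324% (CD 3) of the fragments on genes in a library, or 6831 to 52629 fragments. Fragments were back-calculated from FPKM and exon length, and they set the precision of a share: 2561 to 22107 fragments for Ighv, 3730 to 28697 for Igkv and 433 to 3061 for Iglv. Each library held between 14655086 and 17927374 back-calculated fragments on genes. Of the 171 segments, 135 had a value above 0 in all 12 libraries, 45 were at 5 FPKM or more in all 12, and 18 reached 5 in 1 library only. At the limit of the rule, Ighv3-5 was kept with a highest value of 5.16 FPKM and Ighv1-49 and Igkv8-18 with 5.30 and 5.32, whereas Igkv3-3 at 4.90, Ighv1-67 at 3.59 and Ighv7-4 at 3.36 were left out.

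Summed over its segments, each class varied 6-fold or more between libraries. In each class the HFD+DSS libraries were spread more widely than the 4 group means. For Ighv these means ran from 1224 (CD+DSS) to 2376 (CD), and the HFD+DSS libraries from 507 to 2694. Summed Ighv FPKM was 1445, 2053 and 3631 for CD, 2166, 2001 and 1224 for HFD, 1892, 519 and 1261 for CD+DSS, and 655, 2694 and 507 for HFD+DSS. CD 3 was the highest and HFD+DSS 3 the lowest, and the ranges of all 4 groups overlapped. Summed Igkv FPKM was 2037, 3354 and 4678 for CD, 3008, 3387 and 2271 for HFD, 2116, 749 and 1551 for CD+DSS, and 1131, 3655 and 740 for HFD+DSS. HFD+DSS 2 stood near the CD and HFD libraries, while the other two HFD+DSS libraries were below each of them. Summed Iglv FPKM was 322, 501 and 282 for CD, 242, 395 and 208 for HFD, 292, 104 and 191 for CD+DSS, and 98.4, 302 and 59.2 for HFD+DSS. The highest library exceeded the lowest by 7.16-fold for Ighv, 6.32-fold for Igkv and 8.45-fold for Iglv.

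**Figure D1:**
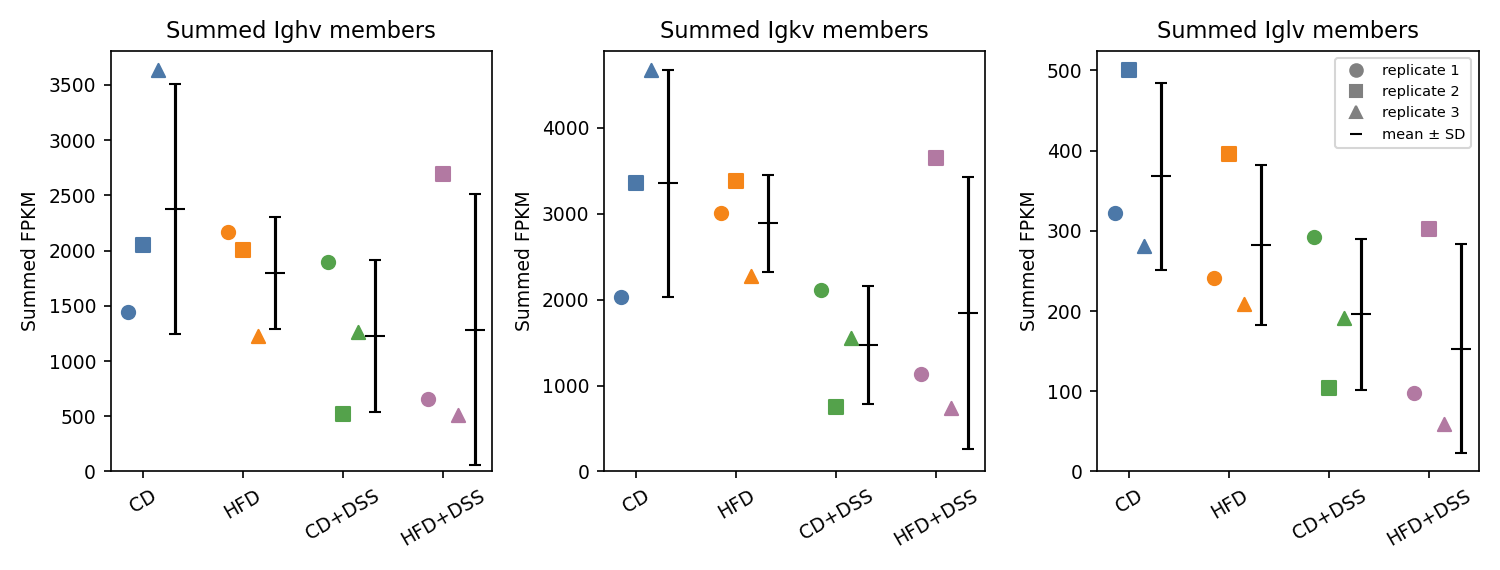
Summed FPKM of the kept heavy (Ighv), kappa (Igkv) and lambda (Iglv) segments in each library, by group, on linear axes from 0; marker shapes give the replicate, and the bar beside each group is the mean ± SD of its 3 libraries. In HFD+DSS, replicate 2 sits at 2694 (Ighv) and 3655 (Igkv) FPKM while replicates 1 and 3 lie below all CD and HFD libraries.

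The balance between the chains varied less than their levels. The ratio of summed heavy to summed light segment FPKM ranged from 0.494 (HFD 3) to 0.786 (CD+DSS 1), with group means of 0.626 ± 0.1004 for CD, 0.563 ± 0.0914 for HFD, 0.706 ± 0.0900 for CD+DSS, and 0.616 ± 0.0759 for HFD+DSS (SD, n = 3 each). Lambda segments made up 13.6%, 13.0% and 5.68% of light chain segment FPKM for CD, 7.44%, 10.5% and 8.40% for HFD, 12.1%, 12.2% and 11.0% for CD+DSS, and 8.01%, 7.64% and 7.41% for HFD+DSS. The 3 CD+DSS libraries were above the 3 HFD+DSS libraries, and CD 3, with the most kappa RNA, had the smallest lambda share of all.

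Among heavy segments, usage was broad, and no segment dominated a library. The effective number of Ighv segments, the number of equally used segments that would give the same Shannon entropy, ranged from 40.7 (CD+DSS 3) to 52.1 (HFD+DSS 1). Its group means were 45.03 ± 1.31 for CD, 44.2 ± 2.48 for HFD, 46.0 ± 4.96 for CD+DSS, and 48.1 ± 3.88 for HFD+DSS (SD, n = 3 each), and the groups overlapped. The leading segment held 4.99% (HFD+DSS 1) to 12.1% (HFD+DSS 2) of Ighv FPKM, and the leading 5 together held 21.5% to 33.7%. Only 3 segments ever led: Ighv14-4 in 7 libraries, Ighv1-26 in 4 and Ighv1-72 in 1 (HFD+DSS 3). Ighv1-72 shares 92.51% of its 50-base windows with other V segments, so its lead is uncertain.

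Ighv14-4 was the most used heavy segment on average. Its share of Ighv FPKM was 5.83%, 9.84% and 11.1% for CD, 10.2%, 5.68% and 5.19% for HFD, 9.30%, 7.44% and 10.5% for CD+DSS, and 2.54%, 12.1% and 5.68% for HFD+DSS. The HFD+DSS libraries held both its lowest and its highest share, so the spread within that group covered the range of all the others. Counting error was small beside this: the 95% Wilson interval of its share of fragments was 1.98% to 2.98% in HFD+DSS 1 and 11.1% to 12.1% in HFD+DSS 2, where intervals cover counting error only and fragments are not independent molecules. In FPKM it stood at 84.2, 202 and 405 for CD, 221, 114 and 63.5 for HFD, 176, 38.6 and 133 for CD+DSS, and 16.6, 325 and 28.8 for HFD+DSS, with every group overlapping every other.

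Ighv1-26, the second most used, had a narrower range in FPKM. It stood at 101, 71.6 and 150 FPKM for CD, 113, 140 and 119 for HFD, 80.7, 30.6 and 46.8 for CD+DSS, and 32.7, 64.2 and 22.1 for HFD+DSS. The 3 HFD libraries were above all DSS libraries of either diet. Its share was highest in HFD 3 (9.70%) and lowest in HFD+DSS 2 (2.38%), the library in which Ighv14-4 had its highest share. The next 3 by mean share were Ighv1-64 (1.62% to 5.72%), Ighv1-55 (2.28% to 8.51%, highest in CD+DSS 3) and Ighv1-9 (2.21% to 5.53%). Ighv1-72 ranged from 0.964% in CD 1 to 6.00% in HFD+DSS 3, where it led with 30.4 FPKM against 28.8 for Ighv14-4. In CD+DSS 2 it was the second, with 5.98%.

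Kappa usage was about as broad, with more changes of leader. The effective number of Igkv segments ranged from 33.0 (HFD+DSS 3) to 50.5 (CD+DSS 1), with group means of 41.4 ± 0.769 for CD, 39.7 ± 1.71 for HFD, 44.5 ± 5.62 for CD+DSS, and 39.8 ± 6.45 for HFD+DSS (SD, n = 3 each). The CD and HFD libraries were close to each other, and the 2 DSS groups held both extremes. The leading segment held 5.58% (CD+DSS 1) to 10.5% (CD+DSS 2) of Igkv FPKM, and the leading 5 held 23.9% to 40.9%. There were 5 leaders: Igkv17-121 in 6 libraries, Igkv10-96 and Igkv3-10 in 2 each, and Igkv3-4 and Igkv4-59 in 1 each. Igkv4-59 and Igkv3-10 share 74.29% and 53.55% of their 50-base windows with other V segments, so their leads are uncertain. In several libraries the lead was within counting error of the second, as in CD 2, where Igkv3-10 stood at 263 FPKM and Igkv17-121 at 262. Some leaders depended on the measure. By fragments, not divided by length, Igkv1-117 led in CD+DSS 1 (812 against 722 for Igkv10-96). In HFD+DSS 2 Igkv4-59 then led (1865 against 1845 for Igkv17-121).

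Igkv17-121 took 3.58%, 7.82% and 10.2% of Igkv FPKM for CD, 5.47%, 7.40% and 8.15% for HFD, 3.26%, 8.12% and 7.45% for CD+DSS, and 4.62%, 7.83% and 9.93% for HFD+DSS. Each group had 1 library under 5.5% and 2 above 7%. Igkv10-96 was the steadiest of the leaders, at 4.16% to 7.30% in every library and among the leading 5 in 11 of 12. Igkv4-59 ranged from 3.64% (HFD+DSS 3) to 10.5% (CD+DSS 2). Igkv3-4 was highest in HFD+DSS 3 (9.86%) and CD 1 (8.39%), and Igkv3-2, its relative of the same family, also peaked in HFD+DSS 3 (8.62%). Igkv3-10 was the most uneven: it held 10.4% in HFD 1 (313 FPKM) and 7.84% in CD 2 (263 FPKM), but between 1.18% and 3.66% in the other 10 libraries. Across the 12 libraries 16 Ighv and 14 Igkv segments were ever among the leading 5 of their class, and 0 of either class were so in all 12.

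**Figure D2:**
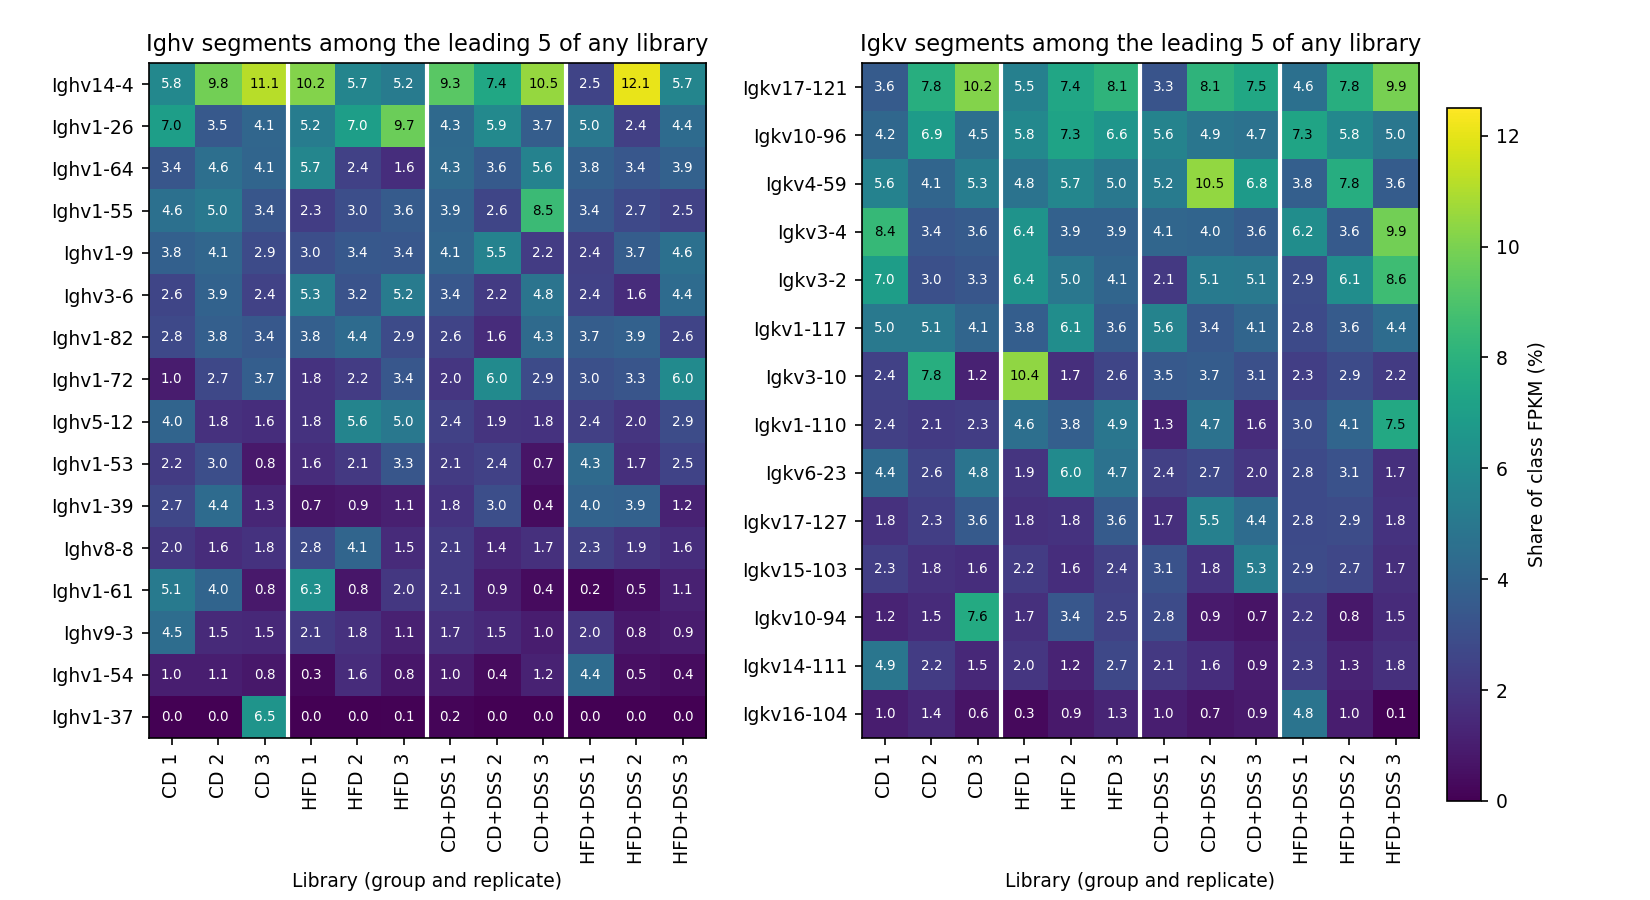
Share of class FPKM (%, colour scale and printed values) for the 16 Ighv and 14 Igkv segments that were among the leading 5 of any library; columns are the 12 libraries in groups separated by white lines, and rows are ordered by mean share. Ighv14-4 ranges from 2.5% (HFD+DSS 1) to 12.1% (HFD+DSS 2), and isolated bright cells such as Ighv1-37 in CD 3 (6.5%) or Igkv3-10 in HFD 1 (10.4%) have no counterpart in the other libraries of the same group.

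Lambda was the only class with 1 dominant segment. Iglv1 led in all 12 libraries, with 91.8%, 90.9% and 87.3% of Iglv FPKM for CD, 85.7%, 92.0% and 67.6% for HFD, 79.2%, 71.5% and 93.5% for CD+DSS, and 84.1%, 73.1% and 66.5% for HFD+DSS. Iglv2, the near copy shown above, took 5.35%, 6.32% and 6.52% for CD, 8.44%, 3.10% and 24.7% for HFD, 17.3%, 26.2% and 1.63% for CD+DSS, and 7.46%, 22.1% and 30.7% for HFD+DSS. The CD libraries were alike, whereas each of the other groups held both a low and a high library. The share of fragments in CD+DSS 3 rested on 17 Iglv2 fragments of 1114 (95% Wilson interval 0.955% to 2.43%) and that in HFD+DSS 3 on 127 of 433 (25.2% to 33.8%), so these libraries differed by far more than counting error. Iglv3, which shares no 50-base window with another segment, stayed between 2.24% and 8.39%.

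The lambda constant genes were set beside these shares, since Iglv2 normally joins to Iglc2, and Iglv1 to Iglc3 or Iglc1. The ratio of Iglv1 to Iglc1 FPKM lay between 1.12 and 1.54 in all 12 libraries. Iglc2 made up 41.5% of Iglc1, Iglc2 and Iglc3 FPKM in HFD+DSS 3, 29.3% in HFD+DSS 2 and 28.6% in CD+DSS 2, which are 3 of the 4 libraries with the most Iglv2. The fourth, HFD 3, had 24.7% Iglv2 but 15.1% Iglc2, and its ratio of Iglv2 to Iglc2 FPKM was 2.10, against 0.219 to 1.13 in the other libraries. The lowest Iglc2 shares were in HFD 2 (8.56%) and CD+DSS 3 (9.26%), which also had the least Iglv2.

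**Figure D3:**
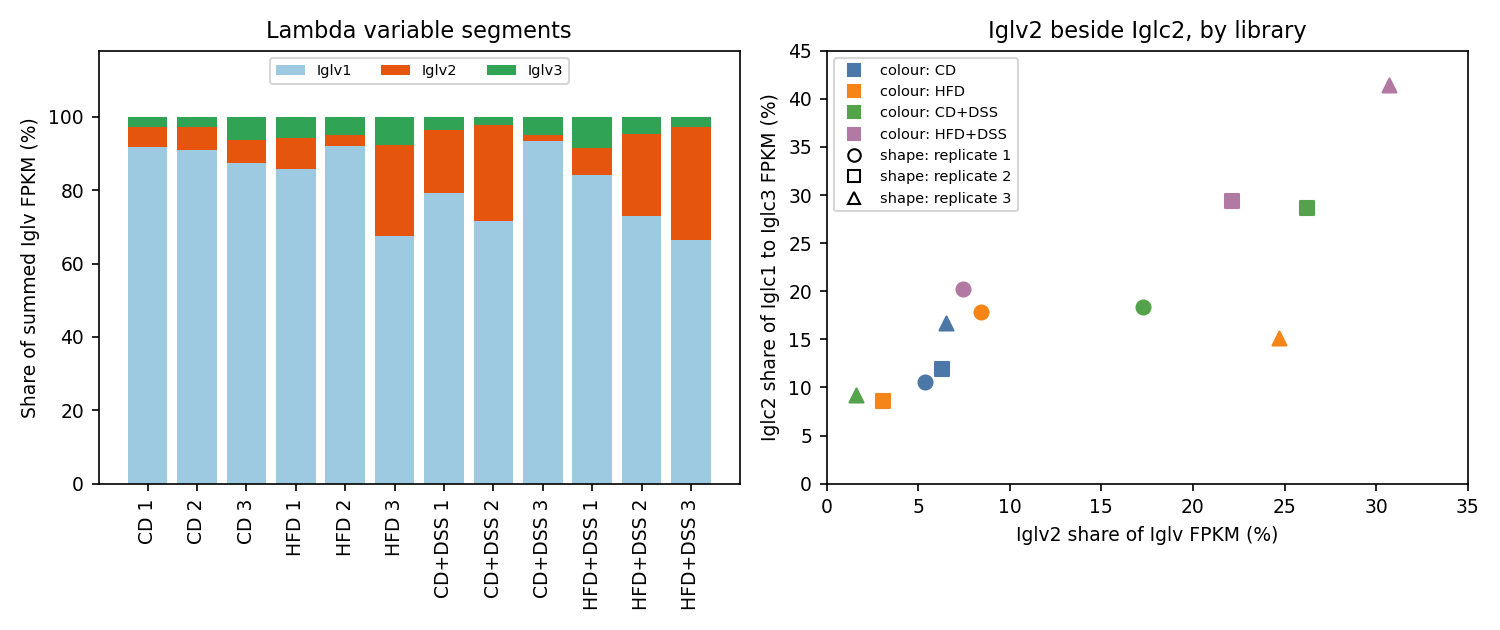
Left, share of summed Iglv FPKM (%) held by Iglv1, Iglv2 and Iglv3 in each library, as stacked bars from 0. Right, each library's Iglv2 share of Iglv FPKM (x axis, %) against its Iglc2 share of Iglc1 to Iglc3 FPKM (y axis, %), coloured by group and shaped by replicate; HFD+DSS 3 has the highest of both (30.7% and 41.5%), and HFD 3 combines 24.7% Iglv2 with 15.1% Iglc2.

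The overlap of usage was close in size for libraries of the same group and of different groups, and the difference was not tested. For each pair of libraries the smaller of the 2 shares was summed over the segments of a class, giving the percent of usage in common. For Ighv the median was 70.0% over the 12 pairs within groups (58.6% to 77.1%) and 69.7% over the 54 pairs between groups (61.0% to 76.6%). For Igkv it was 72.0% within (66.2% to 80.0%) and 72.3% between (64.1% to 81.3%). Of the 10 leading segments, a median of 5 Ighv and 7 Igkv were in common, both within and between groups. Pairs share libraries and the segments are the same genes, so these values are descriptions. HFD+DSS 3 had the lowest median overlap with the other libraries in both classes, 64.5% for Ighv and 69.7% for Igkv. It held 9221 V segment fragments, while CD+DSS 2, with the fewest at 6831, had medians of 69.6% and 72.8%. A link of overlap to fragment number was not tested.

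Some segments rested on a single library. If a segment were equally high everywhere, its highest library would hold 8.33% of its 12-library FPKM sum, the lowest value possible. The median over the 171 was 23.5%. In 6 segments, singled out after their values were seen, the highest library held more than 50%. Each of the 6 was under 5 FPKM in every other library. They were thus kept only through the library they rest on, and the rule itself favours such values. Ighv1-37 (chr12:114896238-114896671, minus strand) was the extreme: it stood at 235 FPKM in CD 3, on 1373 fragments, at 2.84 in CD+DSS 1, at 0.929 in HFD 3 and at 0 in the other 9 libraries. CD 3 thus held 98.4% of its sum, and there it was the second heavy segment after Ighv14-4, with 6.46% of Ighv FPKM. Its nearest relative over the last 250 bases was Ighv1-20, at 98.4% identity. Ighv1-37 shares 50.99% of its 50-base windows with other V segments, so its split from near copies is uncertain.

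The other 5 were lower in level. Igkv18-36, which shares no 50-base window with any other segment, was at 15.3 FPKM in HFD 1 and at most 1.11 in the others, so HFD 1 held 81.6% of its sum. Ighv2-4 reached 7.71 FPKM in CD 3 (75.7% of its sum), Igkv9-123 9.55 in CD 3 (61.6%), Ighv1-31 18.3 in HFD+DSS 2 (60.1%) and Igkv10-95 6.81 in HFD+DSS 2 (50.2%). CD 3 was the highest library for 48 of the 171 segments, HFD 2 for 29 and HFD+DSS 2 for 28. CD+DSS 2 and HFD+DSS 3, both among the 3 libraries with the fewest V segment fragments, were so for 0. These are ranks of FPKM and not of shares. Summed over all 3 classes, V segment FPKM was 8591 in CD 3, 5783 in HFD 2 and 6652 in HFD+DSS 2. It was 1372 in CD+DSS 2 and 1306 in HFD+DSS 3.

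**Figure D4:**
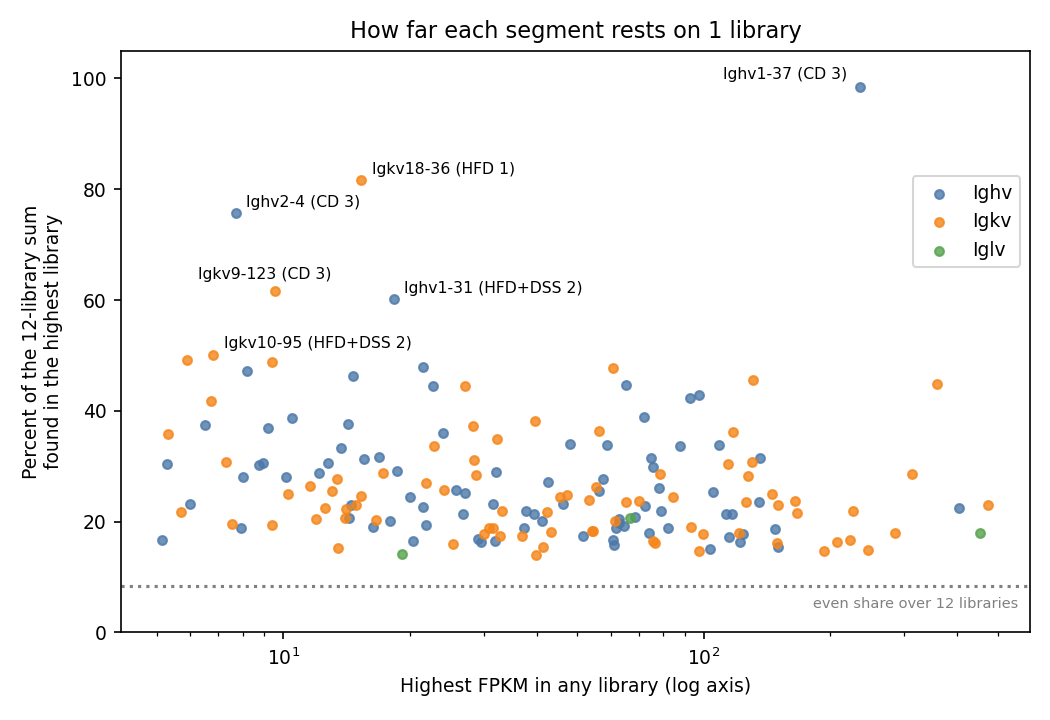
Each of the 171 segments by its highest FPKM in any library (x axis, log scale) and the percent of its 12-library FPKM sum found in that library (y axis), coloured by class; the dotted line marks the even share of 8.33%. The 6 named points lie above 50%, and Ighv1-37 stands alone at 235 FPKM and 98.4%.

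V segments are numbered by families of like sequence, and the Ighv1 family took most of the heavy usage in every library. It had 45 of the 85 heavy segments (52.9%) and held 52.4% to 62.4% of Ighv FPKM. The 4 Ighv14 segments (4.71% of the kept heavy segments) held 4.49% to 15.6%, most of it Ighv14-4, and the 7 Ighv5 segments held 6.28% to 10.7%. Among kappa families, the 8 Igkv3 segments held 11.0% (CD 3) to 33.2% (HFD 1), the 21 Igkv4 segments, the most numerous, 9.54% to 18.8%, and the 2 Igkv17 segments 4.95% to 13.7%. The Igkv4 share was 17.6%, 18.8% and 15.8% in CD+DSS, above all 9 other libraries, where it was at most 15.1%.

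Position along the locus was a second property that the rule did not use. All 85 Ighv segments lie on chromosome 12 in 1 orientation, 158 to 2570 kb from the joining segments. The segments were ordered by this distance into 4 bins of 21 or 22. The nearest bin held a median of 16.7% of Ighv FPKM (14.1% to 19.7%), less than each of the 3 farther bins, whose medians were 27.9%, 25.7% and 29.4%. On chromosome 6 the 83 Igkv segments lie 18.4 to 3112 kb from the joining segments. In 4 bins of 20 or 21 the nearest held a median of 33.0% (29.2% to 43.5%) and the farthest 28.8%, while the 2 middle bins held 17.7% and 19.1%. The 33 Igkv segments on the strand of the joining segments, which join by deletion, held a median of 52.0% of Igkv FPKM, and the 50 on the opposite strand, which join by inversion, 48.0%.

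Each segment was then compared between groups with limma on log2(FPKM + 1), fitted over the 14179 genes that reached 1 FPKM in 3 or more libraries, with Benjamini-Hochberg adjustment over all of them. Of the 171 segments 167 entered this fit. The fold changes below are on that log2 scale, which understates changes of low genes, and an adjusted p under 0.05 was the threshold. Because a kept segment had only to be high in 1 library, the counts and medians over the segments describe them and are not support for a change. Comparisons that share a group share its libraries, and their values are given side by side only.

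With DSS on the CD diet, most V segments had lower estimates, but 0 of 167 were called in either direction (background over all genes 0.0705% higher and 0.0141% lower). Estimates were negative for 145 segments (86.8%, against 48.5% of all genes), and the median was -0.96 (all genes 0.01). At an unadjusted p under 0.05, 30 segments (17.96%; background 6.49%) were lower and 0 higher (background 8.67%). In 24 segments (14.4%; background 10.4%) all CD+DSS libraries were below all CD libraries, and in 0 (background 13.7%) above them. The median was -0.87 for Ighv, -1.09 for Igkv and -0.96 for Iglv, so all classes were on the same side. These values moved with single libraries. Without CD+DSS 2 the median was -0.60 and 7 segments (4.19%; 4.15% of all genes in that fit) were lower at an unadjusted p under 0.05, and without CD 3 the median was -0.61 and 9 (5.39%; 8.23%) were lower, so in both fits the share was near or under that of all genes. Without CD+DSS 1, 46 (27.5%; 5.38%) were lower. No segment was called in these 3 fits, and voom on the fragments also called 0. The 3 segments with the smallest p were kappa segments.

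Igkv14-111 had the smallest p in that comparison. It stood at 99.6, 75.2 and 68.0 FPKM in CD and 44.1, 12.3 and 14.6 in CD+DSS, without overlap (fold change -1.94 ± 0.48, SE; limma adjusted p = 0.136). Igkv3-4 was at 171, 114 and 168 FPKM in CD and 87.0, 30.04 and 56.4 in CD+DSS, also without overlap (-1.47 ± 0.40, limma adjusted p = 0.158). Igkv3-1, a low segment at 8.68, 13.5 and 11.0 FPKM in CD and 2.78, 2.27 and 6.72 in CD+DSS, gave -1.38 ± 0.36 (limma adjusted p = 0.142). Ighv14-4 and Igkv17-121, the most frequent leaders of their classes, gave -0.97 ± 1.01 and -1.40 ± 0.69 (limma adjusted p = 0.659 and 0.359).

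With DSS on the HFD diet the direction was the same on balance, and again 0 of 167 segments were called (background 0.247% higher and 0.0917% lower). Estimates were negative for 132 segments (79.0%, against 49.1% of all genes), with a median of -0.66 (all genes 0.01). At an unadjusted p under 0.05, 16 (9.58%; background 6.23%) were lower and 0 higher (background 7.34%). In 11 (6.59%; background 7.6%) all HFD+DSS libraries were below all HFD libraries, a share near the background, and in 0 (background 8.82%) above them. The outcome moved with single libraries. Without HFD+DSS 2, whose summed V segment levels lay within the range of the libraries without DSS, the median was -1.31, and 60 segments (35.9%; background in that fit 8.04%) were lower at an unadjusted p under 0.05. Groups of 2 and 3 libraries separate more easily than 3 and 3, and here 83 segments (49.7%; background 14.3%) did not overlap on the lower side. In this fit 3 segments (background 0.261%) were called lower: Igkv3-7 (-2.48 ± 0.40), Igkv4-59 (-2.08 ± 0.36) and Ighv1-26 (-2.16 ± 0.40; limma adjusted p = 0.0343, 0.0392 and 0.0485). Without HFD+DSS 3 the median was -0.16, with 99 segments negative and 0 called. At an unadjusted p under 0.05, 8 (4.79%; 3.91% of all genes in that fit) were then lower and 3 (6.07% of all genes) higher. Without HFD+DSS 1, 10 (5.99%; 6.79%) were lower. With all libraries voom also called 0.

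Igkv12-38 had the smallest p with all libraries. It is a low segment, at 13.0, 3.43 and 12.8 FPKM in HFD and 1.51, 0.649 and 0.302 in HFD+DSS (-2.44 ± 0.52; limma adjusted p = 0.0820). Ighv1-26, whose values are given above, followed with -1.75 ± 0.42 (limma adjusted p = 0.116). Ighv1-22 came next, at 69.6, 79.3 and 25.6 FPKM in HFD and 8.41, 20.2 and 10.6 in HFD+DSS (-2.01 ± 0.54, limma adjusted p = 0.157). All 3 were lower in every HFD+DSS library than in any HFD library.

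**Figure D5:**
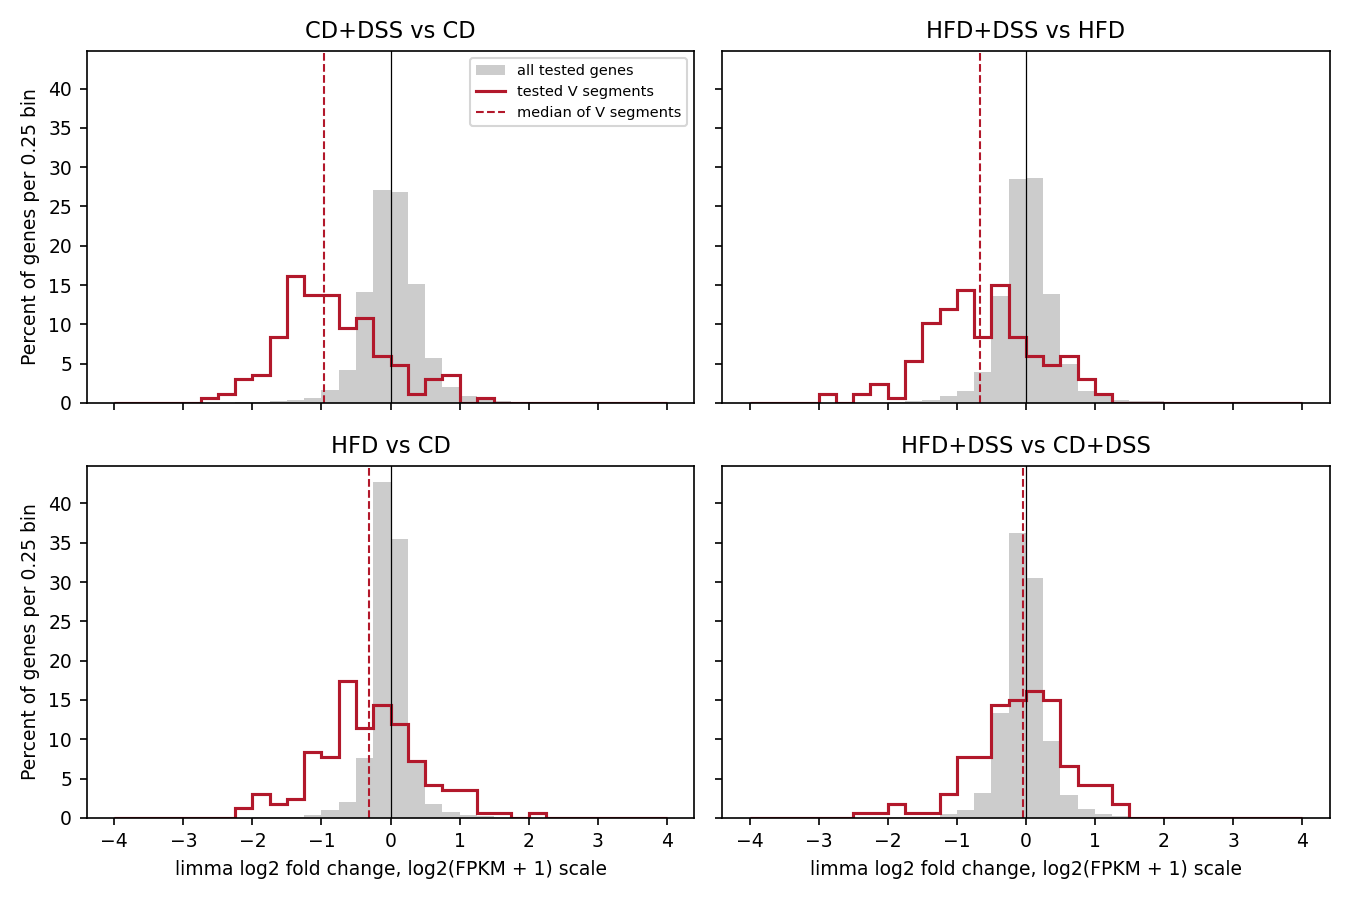
Distribution of limma log2 fold changes (x axis, log2(FPKM + 1) scale) as percent of genes per 0.25 bin (y axis) for all 14179 tested genes (grey) and the 167 tested V segments (red line), in 4 comparisons that share libraries in part. The dashed line is the median of the V segments, at -0.96 for CD+DSS vs CD, -0.66 for HFD+DSS vs HFD, -0.31 for HFD vs CD and -0.04 for HFD+DSS vs CD+DSS, and 0 segments were called in any of them.

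Diet without DSS gave a median nearer to 0. For HFD against CD 0 segments were called (background 0% in both directions). Estimates were negative for 113 segments (67.7%, against 54.1% of all genes) and positive for 54, with a median of -0.31 (all genes -0.02). At an unadjusted p under 0.05, 6 (3.59%; background 2.38%) were lower and 2 (1.20%; background 1.77%) higher. The groups did not overlap in 9 lower segments (5.39%; background 5.02%) and 2 higher ones (1.20%; background 4.61%), shares near or under the background. Igkv4-90, which has no 50-base window in common with another segment, was at 14.0, 14.1 and 9.88 FPKM in CD and 0.892, 2.58 and 2.78 in HFD, without overlap (-2.20 ± 0.49, limma adjusted p = 0.711). Ighv7-1 stood at 2.81, 5.08 and 3.97 FPKM in CD and 0.519, 0 and 0.719 in HFD (-1.82 ± 0.56, limma adjusted p = 0.860). Igkv3-7 went the other way, at 19.7, 37.4 and 33.1 FPKM in CD and 107, 145 and 58.3 in HFD (1.70 ± 0.56, limma adjusted p = 0.892), and these groups did not overlap either. Without CD 3 the median over the segments was -0.06 and 3 segments (1.80%; 3.08% of all genes in that fit) were lower at an unadjusted p under 0.05, and without HFD 3 the median was -0.19. Without CD 1 the median was -0.53, 15 segments (8.98%; 1.75%) were lower and 39 (23.4%; 7.79%) did not overlap on the lower side. With HFD+DSS 2 left out of the shared estimate of spread, 12 (7.19%; 2.22%) were lower at an unadjusted p under 0.05. With HFD+DSS 3 left out, 11 (6.59%; 2.69%) were. Fitting just the CD and HFD libraries gave 16 lower (9.58%; 2.98%). None of these fits called a segment.

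Diet with DSS, HFD+DSS against CD+DSS, showed no common direction. There were 0 calls (background 0% in both directions). Estimates were negative for 87 segments (52.1%, against 54.6% of all genes) and positive for 80, with a median of -0.04 (all genes -0.03). At an unadjusted p under 0.05, 3 (1.80%; background 3.84%) were lower and 1 (0.599%; background 2.77%) higher. The groups did not overlap in 3 lower (background 5.85%) and 1 higher segment (background 3.6%). Igkv4-90 was again the segment with the smallest p, at 11.5, 1.89 and 3.43 FPKM with CD+DSS and 0.931, 1.12 and 0 with HFD+DSS (-1.76 ± 0.49, limma adjusted p = 0.700). Igkv1-110 gave 1.18 ± 0.44 and Igkv12-41 -1.91 ± 0.81 (limma adjusted p = 0.732 and 0.749), with overlapping groups in both. The median was -0.67 without HFD+DSS 2 and -0.48 without CD+DSS 2, but 0.38 without HFD+DSS 3, 0.32 without CD+DSS 1 and 0.06 without HFD+DSS 1, and voom also called 0 here and in HFD vs CD. At an unadjusted p under 0.05, 19 segments (11.4%; 6.27% of all genes in that fit) were lower without HFD+DSS 2, while 9 were higher without HFD+DSS 3 and 7 without CD+DSS 1 (2.58% and 2.85% of all genes). The difference of the 2 DSS effects was tested as an interaction, with 0 segments called (background 0% in both directions) and 3 in each direction at an unadjusted p under 0.05 (1.80% each, background 2.69% higher and 2.73% lower). The smallest adjusted p in that test was 0.854 (limma), for Igkv5-43 at 1.77 ± 0.68, followed by Igkv3-9 at -3.16 ± 1.27 and Igkv12-38 at -1.80 ± 0.73.

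Most joining segments of the same loci had negative estimates with DSS, while the constant genes were mixed. Of 13 antibody constant genes, 11 were tested and 0 called. In CD+DSS vs CD 8 were negative and 3 positive, and in HFD+DSS vs HFD 7 were negative and 4 positive. Of 13 joining segments, 11 were tested and 0 called, with 11 negative in the first comparison and 10 in the second. Over all genes 48.5% and 49.1% of estimates were negative. Igha, the IgA heavy chain, was at 1660, 2514 and 3353 FPKM for CD, 2247, 1941 and 1129 for HFD, 2123, 977 and 1400 for CD+DSS, and 535, 2041 and 863 for HFD+DSS. Its log2 fold change with DSS was -0.76 ± 0.49 on CD and -0.79 ± 0.49 on HFD (limma adjusted p = 0.468 and 0.495). Igkc, the kappa constant gene, gave -0.97 ± 0.42 and -0.92 ± 0.42 (limma adjusted p = 0.314 and 0.374). Summed Igkv FPKM divided by Igkc FPKM lay between 0.341 (CD+DSS 2) and 0.707 (HFD+DSS 2), and summed Ighv divided by summed heavy constant FPKM between 0.479 (CD+DSS 2) and 1.08 (HFD+DSS 2), so the same 2 libraries had the least and the most V segment RNA per constant gene RNA in both loci.

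Class usage of the heavy chain was described from the constant genes. Igha held 67.6% (HFD+DSS 1) to 93.02% (CD 1) of heavy constant FPKM and was the first in every library. Ighg2c, an IgG2 heavy chain of C57BL/6 mice, was the second in all but HFD+DSS 1: it held 4.58%, 7.37% and 8.73% for CD, 15.4%, 20.1% and 14.9% for HFD, 6.33%, 6.11% and 14.1% for CD+DSS, and 8.70%, 12.9% and 6.69% for HFD+DSS. The HFD libraries were above all others in this share, whereas Ighg2c FPKM itself overlapped between HFD and CD (1.02 ± 0.72, limma adjusted p = 1). HFD+DSS 1 had the largest shares of Ighm (5.41%), Ighd (1.61%) and Ighg2b (13.3%).

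Genes of antibody secretion and plasma cells were counted from lists. Of the 18 genes of antibody secretion, 0 were called in either DSS comparison, with 12 negative (median -0.05) on CD and 8 (median 0.00) on HFD. Of 10 plasma cell markers, all of them also in the secretion list, 0 were called, with 7 negative (median -0.39) and 6 (median -0.29). Jchain stood at 611, 1024 and 864 FPKM for CD, 573, 801 and 582 for HFD, 451, 215 and 333 for CD+DSS, and 250, 514 and 127 for HFD+DSS. With DSS it did not overlap with its diet control on either diet (-1.35 ± 0.45 and -1.34 ± 0.45; limma adjusted p = 0.218 and 0.238). Tnfrsf17, the survival receptor BCMA of plasma cells, gave -1.03 ± 0.21 on CD and -0.68 ± 0.21 on HFD (limma adjusted p = 0.0862 and 0.215), also without overlap. In CD+DSS vs CD the plasma cell markers Sdc1, a surface proteoglycan that epithelium also carries, and Prdm1, a transcription factor, were above CD without overlap. Sdc1 was at 65.2, 50.3 and 63.5 FPKM in CD and 74.5, 86.7 and 75.3 in CD+DSS (0.40 ± 0.17), and Prdm1 at 1.75, 2.74 and 2.58 and then 3.14, 3.07 and 3.95 (0.39 ± 0.33; limma adjusted p = 0.298 and 0.576). On HFD both overlapped. Xbp1, a secretory regulator that colon epithelium also uses, gave 0.04 ± 0.15 and 0.14 ± 0.15 (limma adjusted p = 0.907 and 0.718). Of the 10 recombination and mutation enzymes 6 were tested and 0 called, and the recombinase gene Rag1 was at 0 in all 12 libraries and Rag2 at 0.037 FPKM or less.

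Markers of other cells varied between the same libraries, and their part in the V segment values was not tested. Summed over 12 B cell genes, HFD+DSS 1 was at 92.0 FPKM and CD 2 at 62.6, with 9.52 to 36.8 in the others. The B cell gene Ms4a1 stood at 9.81 FPKM in HFD+DSS 1 and the follicle chemokine gene Cxcl13 at 82.4, which are their highest values. HFD+DSS 1 is also the library with the broadest heavy usage, at an effective number of 52.1, and the lowest Ighv14-4 share. CD 2, with the second highest B cell sum, had an effective number of 43.8, below the median of 45.6, and an Ighv14-4 share of 9.84%. Of these 12 B cell genes 10 were tested and 0 called in any comparison. Estimates were negative for 7 of 10 in CD+DSS vs CD (median -0.08) and positive for 9 of 10 in HFD+DSS vs HFD (median 0.58). They were negative for 10 of 10 in HFD vs CD (median -0.27) and positive for 10 of 10 in HFD+DSS vs CD+DSS (median 0.38). Smooth muscle genes summed to 2953 FPKM in HFD+DSS 3, against 622 (CD+DSS 2) to 1726 (HFD 2) elsewhere. Hoxb13, a gene of the most distal colon, was at 32.9, 61.3 and 28.8 FPKM for CD, 0.711, 0 and 19.3 for HFD, 22.6, 0.034 and 0.122 for CD+DSS, and 27.4, 37.8 and 62.8 for HFD+DSS. The CD+DSS libraries were below CD and the HFD+DSS libraries above HFD, without overlap (-3.72 ± 1.23 and 3.66 ± 1.23, limma adjusted p = 0.218 and 0.240). Whether the stretch of colon taken bears on the V segment values was not tested. None of the lists of germinal centre and follicle, T cell, colon epithelium, smooth muscle, adipocyte and posterior Hox genes had a called gene in these 4 group comparisons. In CD+DSS vs CD estimates were negative for 6 of 6 smooth muscle genes (median -0.54) and positive for 9 of 10 colon epithelium genes (median 0.45) and 7 of 8 T cell genes (median 0.68). In HFD+DSS vs HFD they were positive for 6 of 6 smooth muscle genes (median 0.39) and 6 of 10 epithelium genes (median 0.08). For T cell genes 8 of 8 were negative (median -0.49). The smooth muscle and T cell medians thus had opposite signs on the 2 diets. So did those of the B cell, adipocyte (0.31 on CD, -1.14 on HFD) and posterior Hox lists (-2.06 and 2.18). These differences were not tested for the lists. The epithelial genes that define the tissue were present throughout, with Epcam at 599 to 1195 FPKM and Cdx2 at 43.8 to 227. Their level varied: the 10 colon epithelium genes summed to 20547 FPKM in HFD 3 and 19397 in CD+DSS 2. In the other libraries this sum was 6125 (CD 2) to 11830 (HFD+DSS 1).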

How the data were processed

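Messenger RNA of mouse colon was measured in 12 libraries, with kit libraries (SMARTER mRNA-Seq), per the labels' protocols. The authors deposited 1 table of FPKM values with a column per sample, and the genome build is mm10 per the submitters' processing notes. The sources used here do not give the aligner, the counting tool, the treatment of fragments that match several genes or the annotation release. Symbols, exon lengths, coordinates and sequences came from GENCODE M21, which held 54409 of the 54532 identifiers. Columns were matched to samples by group and replicate number.

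The values carried a scaling: over genes above 0 in all libraries, the median ratio to the geometric mean was 1.009 in every library. FPKM multiplied by exon length gave whole fragments within 0.1 for 96.9% to 97.2% of values, and these gave depths and intervals. Levels and usage are shares of summed FPKM. Group comparisons used limma 3.58.1 in R 4.3.3 (eBayes with trend) on log2(FPKM + 1), with all 12 libraries in 1 fit, a mean per group and Benjamini-Hochberg adjustment. The script was tested on simulated data. Alternatives were a pseudocount of 0.1, no filter on low values, voom on recovered fragments, a replicate block, fits of 2 groups alone, each library left out, other limits for keeping a segment, and shares of fragments.

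The segments, gene lists and markers were chosen with earlier results of these data known. Named segments are the 5 Ighv, 5 Igkv and 3 Iglv with the highest mean share, all leaders, and in each comparison the called segments (up to 8 in each direction) or, where none was called, the 3 with the smallest p. Segments resting on 1 library were named after their values were seen. Promoters and recombination signals of the segments were not analysed here.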

Additional observations from a re-analysis of the deposited data

How the results depend on the processing

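The count of called segments was 0 in all 5 comparisons under a pseudocount of 0.1, no filter on low values and voom on recovered fragments, and in the 4 comparisons of 2 groups fitted alone, which the interaction does not allow. Leaving out 1 library at a time gave 0 to 3 calls in HFD+DSS vs HFD, with 3 only without HFD+DSS 2, and 0 in the other comparisons. The fold change of Ighv1-26 was then -2.16 (limma adjusted p = 0.0485), the only 1 of the 405 recomputed fold changes of the segments with the smallest p and of Igha, Igkc and Jchain that crossed the threshold. Igkv3-7 and Igkv4-59, the other 2 calls of that fit, are not among these 405 for this comparison. The median over the segments, recomputed under each fit by a choice made after seeing the data, ranged under leave-one-out from -1.27 to -0.60 in CD+DSS vs CD, -1.31 to -0.16 in HFD+DSS vs HFD, -0.53 to -0.06 in HFD vs CD and -0.67 to 0.38 in HFD+DSS vs CD+DSS. In the last it was also -0.13 with a pseudocount of 0.1 and -0.21 with voom. Usage measures were recomputed 258 times. In 168 of these 1 library was left out of its group. The mean of the 2 that remain cannot move past 1 SD of the 3, so these could not come out otherwise. With every segment above 0 (56) and with shares of fragments (32), each group mean stayed within 1 SD of its replicates. A limit of 2 or 10 FPKM kept 182 or 150 segments.

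With the replicate number as a block, 0 segments were called in each of the 5 comparisons. Same-numbered samples did not deviate together: over 18 pairs the correlation of deviations ran from -0.46 to 0.20, 3 pairs were above 0.1, and 0 of 12 samples correlated best with its own number.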
